A study of Homo sapiens with 12 samples.

Results

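The HOX cluster genes are the 39 human homeobox genes that lie side by side in the HOXA, HOXB, HOXC and HOXD clusters. They were chosen by symbol alone, as every gene in the count table whose matched symbol was HOX, a cluster letter from A to D and a paralog number, which gave 39 of 58721 genes: 11 in HOXA on chromosome 7, 10 in HOXB on chromosome 17, 9 in HOXC on chromosome 12 and 9 in HOXD on chromosome 2. RNA-seq was performed on EW8 and TC71, established cell lines from Ewing sarcoma, a bone and soft tissue tumor driven by the fusion protein EWS-FLI1. Every library, vehicle ones included, came from cells that carried lentiviral Tet-On constructs for c-Jun and c-Fos, proteins that pair to form AP-1, a transcription factor, and doxycycline turns these constructs on. The 4 groups of 3 libraries were EW8 vehicle and TC71 vehicle (DMSO, labelled WT), and EW8 doxycycline and TC71 doxycycline (2000 ng/ml, labelled AP1_overexpression), all at 72 h. The cells had been infected and drug-selected, and the labels and methods do not call them clones. No library from cells given doxycycline without the transgenes was used here, so doxycycline itself and c-Jun with c-Fos cannot be told apart.

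HOX proteins are transcription factors that bind DNA through a homeodomain and give cells a position along the body axis. Within a cluster, low paralog numbers lie at the 3' end and are used toward the head, and high numbers lie at the 5' end and are used toward the tail and the ends of the limbs. They often bind together with homeodomain partners of the TALE class (PBX, MEIS and PKNOX proteins), and Polycomb and Trithorax complexes keep the clusters silent or open. Ewing sarcoma cells are known for expressing posterior HOXD genes, HOXD13 among them.

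The libraries held between 42860665 and 60853649 counts, each mate of a pair adding its own. Induction was seen in every library: JUN lay between 18.04 and 25.4 CPM (counts scaled to library size with TMM factors) in the 6 vehicle libraries and between 422.2 and 813.5 CPM in the 6 doxycycline libraries, and FOS between 11.2 and 37.6 CPM against 998.7 to 1686 CPM. TC71 vehicle replicate 1 stood apart, with a chi-square per gene of 65 and 62.5 against the other replicates of its group where the remaining 10 replicate pairs lay between 5.38 and 11.1. All 7 Ewing sarcoma markers were detected in every group (CD99 between 479.7 and 1256 CPM, FLI1 between 40.3 and 87.3 CPM, NR0B1 between 99.4 and 236.8 CPM). Of 13 markers of other cell types, TYR was at 0 in every library and KRT5, CD3E and CDH1 stayed at or under 0.361 CPM. PTPRC, the leukocyte antigen CD45, was between 59.6 and 77.4 CPM in EW8 and at most 0.145 CPM in TC71, so it differed between the lines in the same libraries as the HOX genes below. The summed level of the 13 markers was 80.0 to 85.4 CPM in EW8 vehicle, 115.4 to 125 CPM in EW8 doxycycline, 2.4 to 2.7 CPM in TC71 vehicle and 17.2 to 17.7 CPM in TC71 doxycycline, and its part in the HOX values was not tested. Nothing in the labels says that replicates were separate cultures, so p-values measure only the spread between these libraries.

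Promoter sequence was at hand from RefSeq (GRCh38.p14) for 20 of the 39 genes. HOXB1 was the only HOXB gene among them, and HOXC4 and HOXC5 were the only HOXC genes. The promoters of HOXB4, HOXB6, HOXB7, HOXB9, HOXB13, HOXC8, HOXC9, HOXC10 and HOXC12 were therefore not searched. The 250 bases before the start of HOXD13, HOXD11 and HOXD10 are shown because these neighbours at the 5' end of the HOXD cluster, all on the plus strand, are expressed in both lines and did not move together with doxycycline. The windows are chr2:176092471-176092720 for HOXD13, chr2:176107030-176107279 for HOXD11 and chr2:176116528-176116777 for HOXD10, printed 5' to 3', and capitals mark a match to the HOX-PBX motif TGATTNAT on either strand.
HOXD13: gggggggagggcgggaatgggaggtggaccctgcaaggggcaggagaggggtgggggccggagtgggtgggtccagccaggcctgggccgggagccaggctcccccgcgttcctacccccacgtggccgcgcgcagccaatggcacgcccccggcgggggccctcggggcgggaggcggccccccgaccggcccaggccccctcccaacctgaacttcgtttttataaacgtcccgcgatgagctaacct
HOXD11: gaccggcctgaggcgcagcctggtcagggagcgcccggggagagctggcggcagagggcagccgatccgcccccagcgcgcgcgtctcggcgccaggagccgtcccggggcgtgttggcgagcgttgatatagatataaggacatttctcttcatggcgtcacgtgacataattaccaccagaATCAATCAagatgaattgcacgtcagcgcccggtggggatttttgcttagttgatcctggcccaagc
HOXD10: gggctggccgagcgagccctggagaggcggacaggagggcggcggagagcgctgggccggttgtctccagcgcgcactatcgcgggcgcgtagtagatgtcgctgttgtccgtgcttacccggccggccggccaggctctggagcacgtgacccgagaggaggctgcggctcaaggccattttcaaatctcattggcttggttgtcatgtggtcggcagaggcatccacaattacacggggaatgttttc
The HOXD13 window was 74% G and C, the HOXD11 window 61.6% and the HOXD10 window 64%. Over windows of 300 bases (250 before and 50 after the start), the AP-1 motif TGANTCA was found in 7.71% of 35116 RefSeq promoters and in 0 of the 20 HOX promoters, and the cAMP response element TGACGTCA in 1.85% and in 0. The EWS-FLI1 type repeat GGAAGGAA was in 3.67% of all promoters and in that of HOXA2, and TGATTNAT was in 2.82% of all promoters and in those of HOXA2 and HOXD11, at bases -114 to -107 and -67 to -60 from the start. HOXC4 and HOXC5 share 1 window. These are letters in a window, searched on both strands, and say nothing of binding or of the HOX genes without a window.

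Levels are compared between genes as CPM per kb of exon, mean ± SD of 3 libraries. HOXD13, a gene of digit and urogenital patterning, was the most abundant HOX transcript in all 4 groups, at 33.2 ± 0.578 CPM per kb in EW8 vehicle, 30.3 ± 0.938 in EW8 doxycycline, 54.1 ± 2.06 in TC71 vehicle and 31.8 ± 0.761 in TC71 doxycycline. In EW8 vehicle it was followed by HOXB13 (16.2 ± 1.59 CPM per kb), HOXC12 (13.1 ± 0.91) and HOXB7 (12.6 ± 0.854), and the difference between HOXC12 and HOXB7 was smaller than their SD. In TC71 vehicle the order was HOXB13 (24.8 ± 2.03 CPM per kb), HOXB7 (23.7 ± 1.8), HOXC12 (11.8 ± 1.02) and HOXD10 (10.6 ± 1.86). HOXB13 and HOXB7 lay within their SD of each other, and HOXC12 and HOXD10 differed by less than the SD of HOXD10 but more than that of HOXC12. The leading genes of 3 clusters were therefore HOXD13, HOXB13 and HOXC12 in both lines under vehicle. With doxycycline HOXB7 led the HOXB cluster in both lines, at 16.7 ± 1.25 CPM per kb in EW8 and 22.9 ± 0.636 in TC71, and HOXC10 led HOXC in TC71 at 12.9 ± 0.388. The HOXA leader was HOXA7 in EW8 (4.76 ± 0.345 CPM per kb with vehicle) and HOXA10 in TC71 (1.3 ± 0.193). Reads on exon shared with another gene were dropped, so these levels are too low where much of a gene is shared. Per kb of unshared exon HOXA7 was at 12.69 in EW8 vehicle, beside 12.57 for HOXB7. In TC71 vehicle HOXD10 was at 12.67 on that measure, beside 11.8 for HOXC12. The order under HOXB13 in EW8 and under HOXB7 in TC71 thus depends on the length used.

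**Figure D1:**
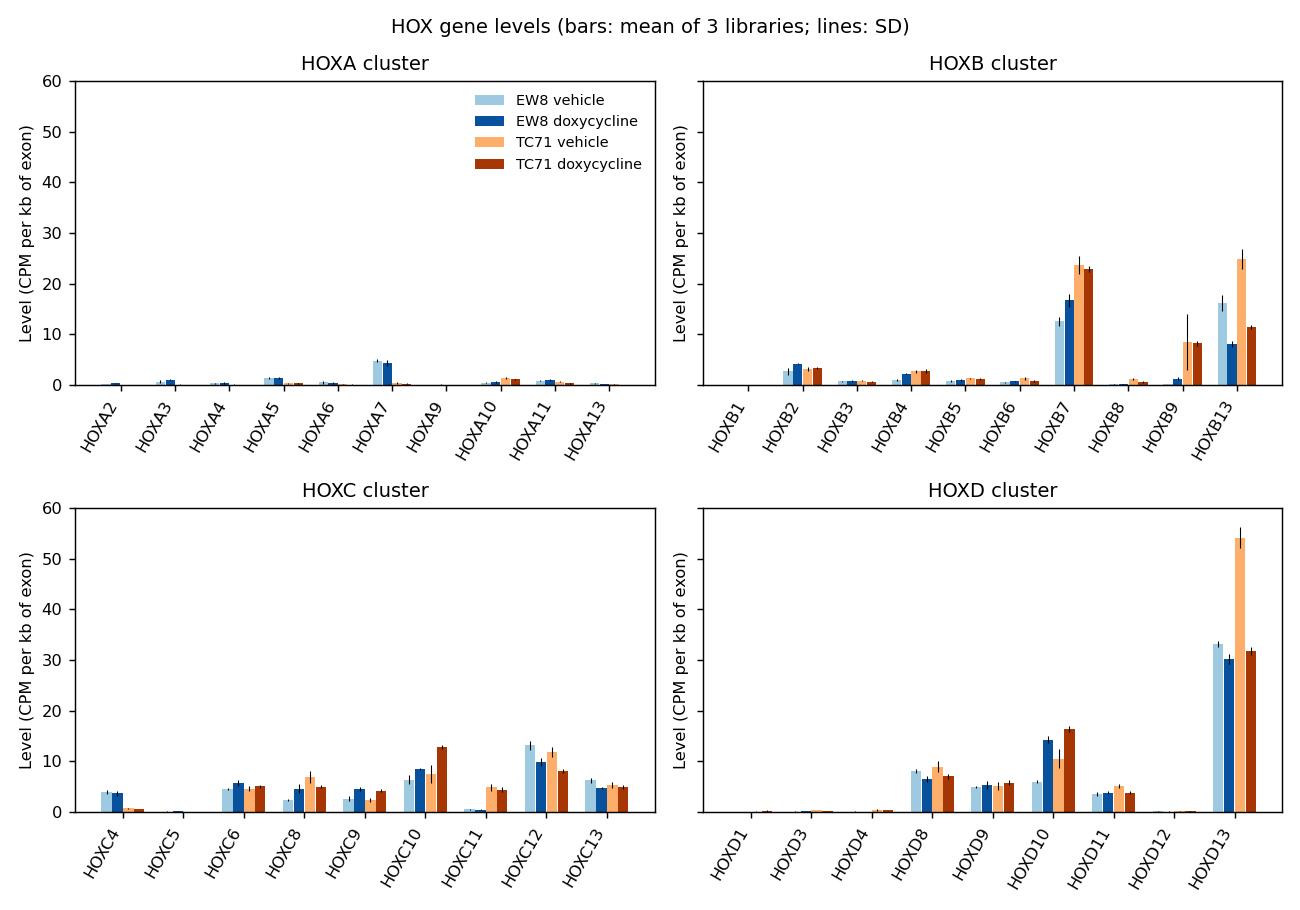
Level of the HOX genes in CPM per kb of exon (vertical axis, linear, from 0), by cluster and paralog number, with 1 bar per group (mean of 3 libraries) and the SD as a line. HOXD13 has the tallest bar in all 4 groups, up to 54.1 CPM per kb in TC71 vehicle. No HOXA bar exceeds 4.76 CPM per kb of full exon length. That bar is HOXA7 in EW8 vehicle, which is at 12.69 CPM per kb of exon not shared with another gene.

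Expression was posterior in both lines. The 16 genes numbered 9 to 13 held 67% ± 1.25 of the summed HOX level in EW8 vehicle, 62.2% ± 1.04 in EW8 doxycycline, 71.4% ± 0.617 in TC71 vehicle and 68.9% ± 0.841 in TC71 doxycycline (SD, n = 3). The 8 genes numbered 1 to 3 held 3.96%, 5.85%, 2.25% and 2.72% in the same order of groups. By cluster, HOXD held between 39.8% and 42.5% of the level in the 4 groups. HOXA held 7.48% ± 0.428 in EW8 vehicle and 1.52% ± 0.156 in TC71 vehicle, whereas HOXB held 24.6% ± 0.34 and 33.8% ± 2.26. The summed level was 141.2 ± 4.57 CPM per kb in EW8 vehicle, 149.3 ± 3.76 in EW8 doxycycline, 199.4 ± 0.666 in TC71 vehicle and 164.9 ± 2.21 in TC71 doxycycline. In 25 of the 39 genes some exon sequence is shared with another listed gene, and reads there were dropped by the authors' counting, most of all in HOXD4, where 19.5% of the exon length is its own. Per kb of unshared exon the HOXA share was 12.6% in EW8 vehicle and 2.13% in TC71 vehicle, so the order of the lines was the same at a higher level. These shares are descriptions with no test.

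HOXB1 had no count in any library. HOXA9, HOXC5 and HOXD1 did not pass the filter on low counts, with at most 12, 14 and 31 counts in any library, and the other 35 genes were tested. The floor used below is 6 counts (3 read pairs) per library, and a count of 0 does not show that a gene was silent.

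In EW8, doxycycline was followed by a rise of HOXB4, HOXB9 and HOXD10 and a fall of HOXB13. These 3 and 1 of 39 genes passed an adjusted p under 0.05 (edgeR quasi-likelihood test, Benjamini-Hochberg over 21013 genes) with an absolute log2 fold change over 1, beside 11.4% of all tested genes called higher and 3.38% called lower. By adjusted p alone 10 HOX genes were higher (HOXB2, HOXB7, HOXC6, HOXC8, HOXC9 and HOXC10 among them) and 4 were lower (HOXB13, HOXC12, HOXC13 and HOXD8), beside 21.9% and 22% of all tested genes. The libraries did not overlap in 11 genes that were higher and 6 that were lower, beside 26.9% and 29.1% of all tested genes. The median log2 fold change of the 35 tested HOX genes was 0.17, against -0.031 over all tested genes. In bulk RNA a smaller share of cells with a transcript and less of it per cell cannot be told apart.

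In TC71, HOXB13 fell again, HOXA11 fell, and no HOX gene rose past the fold limit. Called lower were 3 of 39 genes (HOXA2, HOXA11 and HOXB13) and called higher 0, beside 3.67% and 12.3% of all tested genes; by adjusted p alone, which is also the edgeR count at no fold limit, 9 were lower and 3 higher (HOXC9, HOXC10 and HOXD10), beside 20.4% and 25.1%. The 9 were HOXA2, HOXA11, HOXB6, HOXB13, HOXC8, HOXC12, HOXD8, HOXD11 and HOXD13. HOXA2 was at the floor in both groups, with 4, 6 and 4 counts under vehicle and 0 in each doxycycline library, so no fold is given for it. Non-overlapping libraries were seen in 12 genes that were lower and 3 that were higher, beside 23.1% and 27.6% of all tested genes. The median log2 fold change of the 35 tested HOX genes was -0.33, against 0 over all tested genes, and -0.24 over the 32 with both groups above the floor.

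**Figure D2:**
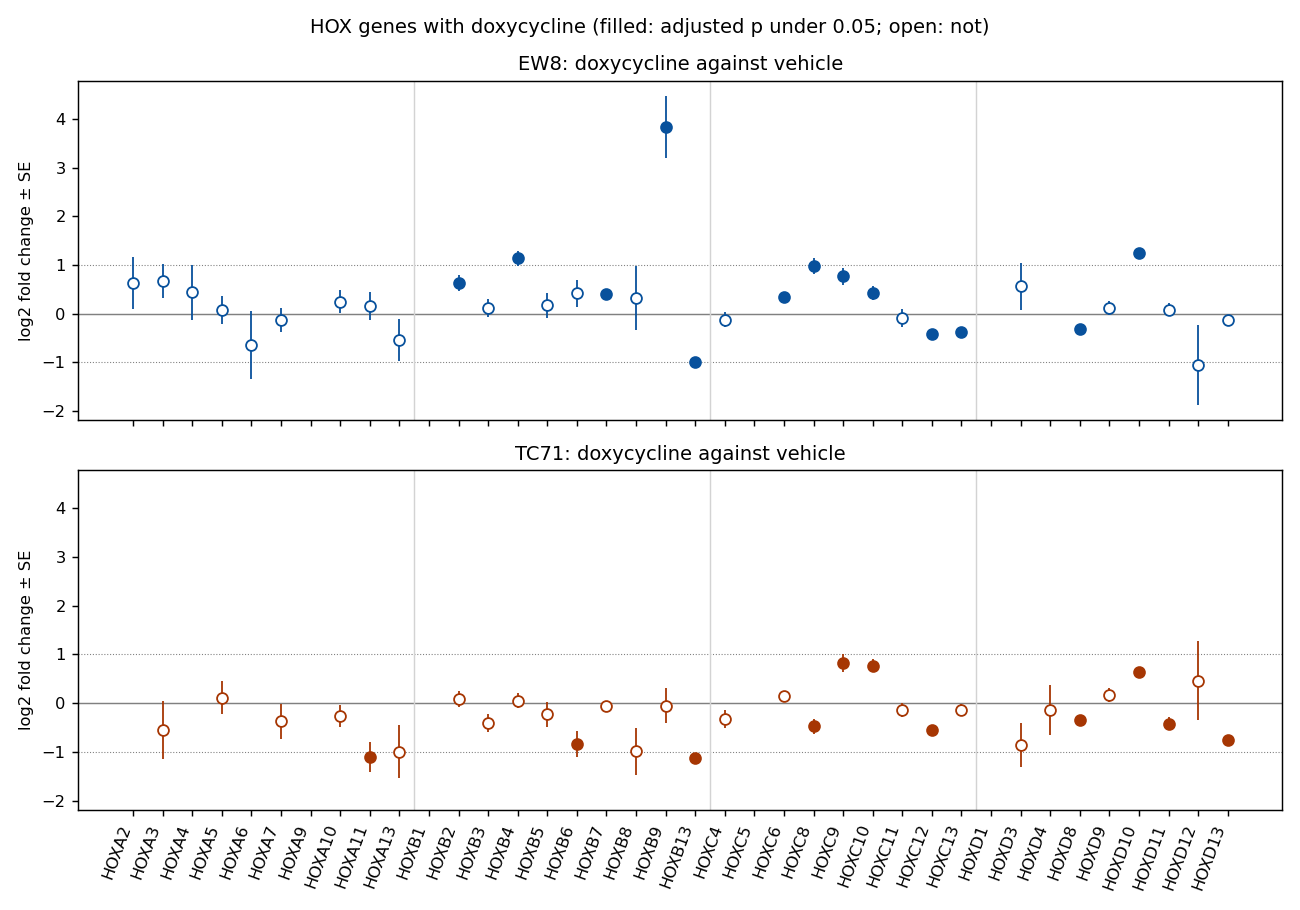
Log2 fold change ± SE with doxycycline against vehicle (vertical axis) for the HOX genes in cluster and paralog order, in EW8 above and TC71 below. Filled points passed an adjusted p under 0.05 and dotted lines mark the fold limit; HOXB13 sits at -1.001 and -1.12, and HOXB9 at 3.83 in EW8. Genes not tested, and genes with a group at the floor (HOXD4 in EW8, HOXA2, HOXA4 and HOXA6 in TC71), have no point.

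HOXB13 (chr17:48724763-48729178, minus strand, hg38) lies apart from the rest of its cluster and is known as a partner of the androgen receptor in prostate. It was at 52.8, 62.5 and 53.1 CPM in the EW8 vehicle libraries and at 27.7, 30.1 and 26.2 CPM with doxycycline. In TC71 it was at 94.2, 82.1 and 81.9 CPM with vehicle and at 40.9, 38.8 and 38.95 CPM with doxycycline. All 6 doxycycline libraries lay under all 6 vehicle libraries. The log2 fold change was -1.001 ± 0.0833 (SE) in EW8, adjusted p = 1.473e-08, and -1.12 ± 0.0825 in TC71, adjusted p = 2.164e-09 (edgeR). In EW8 the value sits on the fold limit, and it was under that limit in 10 of 14 alternatives, between -0.91 and -1.06 over all of them, with an adjusted p of at most 5.697e-07. The difference between the lines, TC71 minus EW8, was -0.12 ± 0.116 and did not pass the test (adjusted p = 0.5482).

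HOXD10 (chr2:176108790-176119942, plus strand), a gene of limb and lumbar spinal cord patterning, moved the other way. Its EW8 values were 15.8, 15.4 and 17.4 CPM with vehicle and 36.8, 38.2 and 40.2 CPM with doxycycline. The TC71 values were 34.2, 25.8 and 25.2 CPM with vehicle and 44.1, 42.7 and 46.0 CPM with doxycycline. In both lines every doxycycline library was above every vehicle library, and TC71 vehicle replicate 1 was the highest of its group. On the log2 scale the change was 1.24 ± 0.105 in EW8 (adjusted p = 1.718e-08) and 0.64 ± 0.102 in TC71 (adjusted p = 4.101e-05), and the rise was smaller in TC71 by 0.60 ± 0.145 on the log2 scale (adjusted p = 0.006269). An exon stretch of 452 bases is shared with HOXD11, and reads there counted for neither gene.

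HOXD13 (chr2:176092891-176095938, plus strand), the gene at the 5' end of the cluster, fell in TC71. It was at 74.0, 73.4 and 75.9 CPM in EW8 vehicle and at 69.8, 65.6 and 67.9 CPM in EW8 doxycycline. In TC71 it went from 126.6, 119 and 118.2 CPM to 72.8, 69.5 and 71.7 CPM. The groups did not overlap in either line, but the step in EW8 was small. The log2 fold change was -0.77 ± 0.0558 in TC71 (adjusted p = 1.87e-09) and -0.14 ± 0.0558 in EW8 (adjusted p = 0.05848), and the responses differed by -0.63 ± 0.0787 (adjusted p = 1.175e-05). With doxycycline the lines were at similar levels: TC71 minus EW8 was 0.07 ± 0.0559 (adjusted p = 0.2705), where it had been 0.70 ± 0.0556 with vehicle (adjusted p = 3.029e-09). Between these genes, HOXD11 fell by 0.42 ± 0.131 on the log2 scale in TC71 (adjusted p = 0.01263) and was at 0.08 ± 0.132 in EW8 (adjusted p = 0.656). HOXD12 was at or under 0.305 CPM in every library. HOXD8 fell by 0.32 ± 0.108 in EW8 (adjusted p = 0.02332) and by 0.35 ± 0.108 in TC71 (adjusted p = 0.01306). These HOXD8 calls were lost in EW8 with at least 10 counts in every library and without vehicle replicate 1 or 3 or doxycycline replicate 2 or 3 (adjusted p up to 0.1972), and in TC71 without doxycycline replicate 3 (0.06722), which also took HOXD11 to 0.0561. HOXD9 did not pass the test in either line.

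HOXB9 (chr17:48621159-48626356, minus strand), a thoracic patterning gene, had the largest fold change of the HOX genes above the floor in EW8. It was at 0.226, 0.262 and 0.18 CPM with vehicle, which are 10, 12 and 10 counts, and at 2.58, 3.12 and 3.84 CPM with doxycycline. This is a log2 fold change of 3.83 ± 0.629 (adjusted p = 6.563e-05), which stayed between 3.72 and 4.01 over 14 alternatives. In TC71 it was at 5.46, 28.8 and 31.5 CPM with vehicle and at 21.6, 22.2 and 19.8 CPM with doxycycline. The low value is that of TC71 vehicle replicate 1, which was 0.181 times the mean of the other replicates for HOXB9 and between 0.648 and 1.45 times for the remaining HOX genes over 1 CPM in that group. With all libraries the TC71 log2 fold change was -0.05 ± 0.364 (adjusted p = 0.9409), and without that library it was -0.59 (adjusted p = 0.0003682), opposite in direction to EW8. The responses differed between the lines by -3.88 ± 0.745 (adjusted p = 0.00101), and by -4.46 without that library. HOXB9 in EW8 doxycycline remained below TC71 doxycycline (log2 2.74 ± 0.409, adjusted p = 1.121e-05).

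HOXB4 (chr17:48575513-48580111, minus strand), known for its effect on blood stem cell expansion, rose in EW8. It was at 3.07, 4.4 and 3.81 CPM with vehicle and at 7.61, 8.5 and 8.72 CPM with doxycycline there. The TC71 libraries were at 10.4, 8.74 and 11 CPM with vehicle and at 9.38, 12.04 and 9.81 CPM with doxycycline, and these overlapped. The fitted log2 change was 1.14 ± 0.16 in EW8 (adjusted p = 1.241e-05) and 0.05 ± 0.152 in TC71 (adjusted p = 0.8186), with a difference of -1.08 ± 0.22 (adjusted p = 0.001694). Leaving out EW8 vehicle replicate 1 brought that difference to -0.96, under the fold limit. Part of HOXB4 is shared with HOXB3, MIR10A and an unnamed gene, and 82.9% of its exon length is its own.

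HOXC8 (chr12:54009106-54012362, plus strand), which patterns the thorax and its motor neurons, passed the test in opposite directions in the 2 lines. It was at 4.94, 4.14 and 4.24 CPM in EW8 vehicle and at 9.59, 9.7 and 6.83 CPM in EW8 doxycycline. In TC71 it was at 15.5, 12.6 and 11.2 CPM with vehicle and at 9.04, 10.2 and 9.15 CPM with doxycycline. The EW8 libraries rose and the TC71 libraries fell without overlap, and both ended near the same level. The log2 fold change was 0.98 ± 0.163 in EW8 (adjusted p = 7.722e-05), just under the fold limit, and -0.47 ± 0.156 in TC71 (adjusted p = 0.01922), where leaving out doxycycline replicate 1 or 3 lost the call for HOXC8 (adjusted p up to 0.06766). The difference was -1.45 ± 0.225 (adjusted p = 0.0001352). Under doxycycline TC71 minus EW8 was 0.12 ± 0.158 (adjusted p = 0.5502), against 1.56 ± 0.162 with vehicle.

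**Figure D3:**
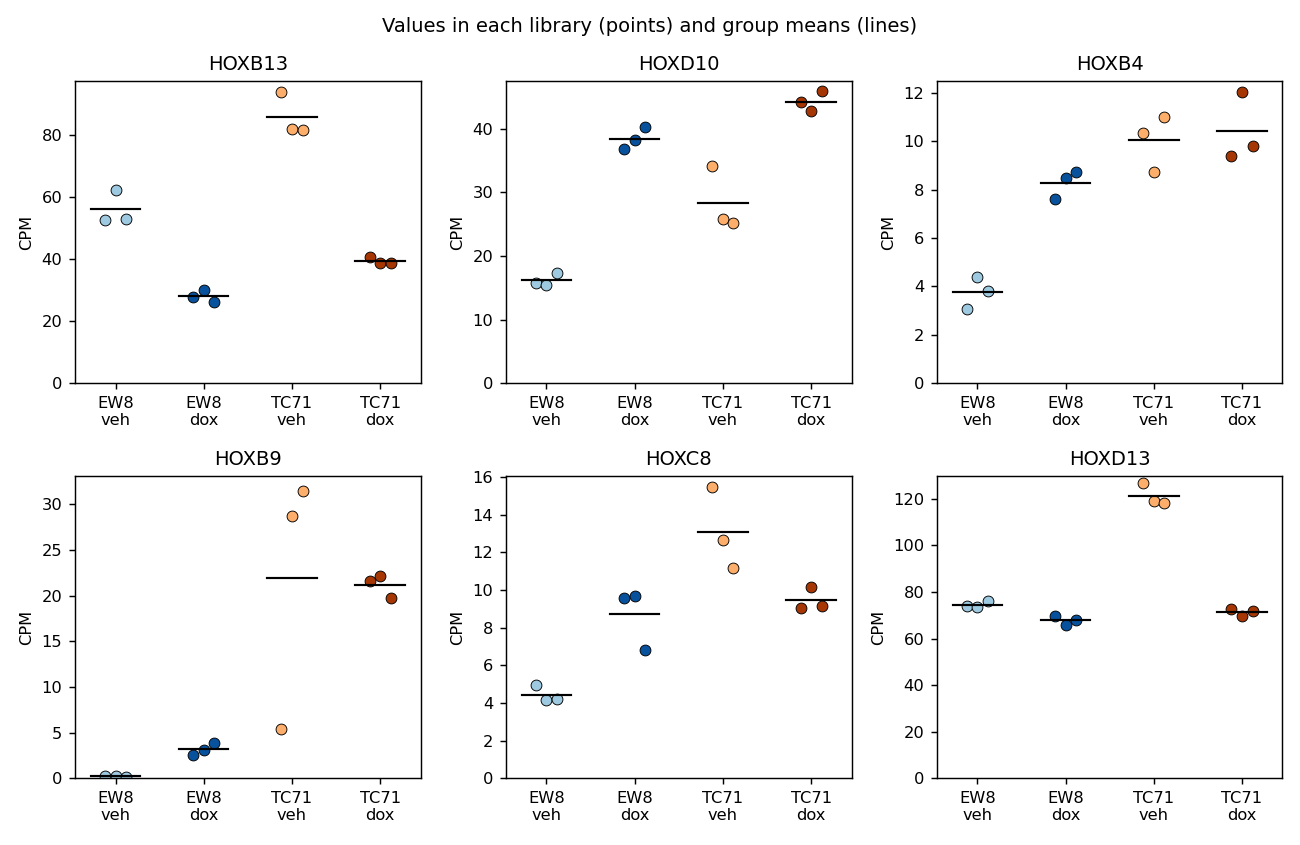
Level in each of the 12 libraries (points, CPM on linear axes from 0) and group means (lines) for HOXB13, HOXD10, HOXB4, HOXB9, HOXC8 and HOXD13, with vehicle shortened to veh and doxycycline to dox. HOXB13 falls in both lines, HOXD10 rises in both, HOXD13 falls from 118.2 or more to 72.8 CPM or less in TC71, and the low HOXB9 point of 5.46 CPM is TC71 vehicle replicate 1.

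Neighbours of HOXC8 toward the 5' end kept 1 direction in both lines. HOXC9 rose by a log2 fold change of 0.77 ± 0.181 in EW8 (adjusted p = 0.001973) and 0.82 ± 0.182 in TC71 (adjusted p = 0.001121). HOXC10, used in lumbar and hindlimb patterning, rose from a mean of 14.8 to 19.8 CPM in EW8 (log2 0.42 ± 0.14, adjusted p = 0.0211, and up to 0.1036 for HOXC10 without vehicle replicate 1 or 3 or doxycycline replicate 3) and from 17.6 to 30.0 CPM in TC71 (0.77 ± 0.139, adjusted p = 0.0001543; 0.51 without TC71 vehicle replicate 1). HOXC12 fell by 0.42 ± 0.0881 in EW8 (adjusted p = 0.0007483) and by 0.54 ± 0.089 in TC71 (adjusted p = 5.485e-05). HOXC13, a hair and nail gene, fell by 0.38 ± 0.115 in EW8 (adjusted p = 0.01203, and up to 0.08266 for HOXC13 without vehicle replicate 1 or 3 or doxycycline replicate 2 or 3) and was at -0.14 ± 0.116 in TC71 (adjusted p = 0.3614). Of the 6 genes numbered 12 or 13, 3 were lower and 0 higher by adjusted p alone in each line, with HOXC13 only in EW8 and HOXD13 only in TC71. Of the 10 numbered 9 to 11, 4 were higher and 0 lower in EW8 and 3 higher and 2 lower in TC71. This split is finer than the groups used for the shares above. All 16 genes numbered 9 to 13 gave 4 higher and 3 lower in EW8 and 3 higher and 5 lower in TC71. The 15 numbered 4 to 8 gave 4 higher and 1 lower in EW8 and 0 higher and 3 lower in TC71. The 8 numbered 1 to 3 gave 2 higher and 0 lower in EW8 and 0 higher and 1 lower in TC71. Over all tested genes 21.9% were higher and 22% lower in EW8, and 25.1% and 20.4% in TC71. The comparisons with doxycycline in the 2 lines use separate libraries, and these counts by position have no test.

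HOXA11 (chr7:27181510-27185223, minus strand), a gene of the forearm and uterus, was at 1.36, 1.71 and 1.49 CPM in TC71 vehicle and at 0.824, 0.836 and 0.455 CPM in TC71 doxycycline. The EW8 libraries were at 1.58, 1.76 and 2.23 CPM with vehicle and at 1.63, 2.37 and 2.28 CPM with doxycycline. Only the TC71 groups were apart. In log2 terms the change was -1.11 ± 0.311 in TC71 (adjusted p = 0.006699; -0.87 without TC71 doxycycline replicate 3) and 0.17 ± 0.288 in EW8 (adjusted p = 0.6863). The difference of -1.28 ± 0.424 (adjusted p = 0.04209) was lost in 8 of 19 alternatives. Of its exon length, 31.1% is shared with HOXA11-AS, an antisense gene at or under 0.322 CPM in every library.

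HOXB6 (chr17:48595751-48604992, minus strand) was at 4.18, 3.01 and 2.76 CPM in TC71 vehicle and at 1.38, 2.34 and 1.82 CPM in TC71 doxycycline. In EW8 it was at 1.51, 1.07 and 1.56 CPM with vehicle and at 2.17, 1.72 and 1.67 CPM with doxycycline. Its groups did not overlap in either line, with TC71 lower and EW8 higher after doxycycline. The log2 fold change was -0.84 ± 0.268 in TC71 (adjusted p = 0.01526, and 0.07772 for HOXB6 without doxycycline replicate 1) and 0.42 ± 0.275 in EW8 (adjusted p = 0.2402). Their difference of -1.26 ± 0.384 (adjusted p = 0.02676) was lost in 4 of 19 alternatives. HOXB7, the leading HOXB gene with doxycycline, rose in EW8 by a log2 fold change of 0.41 ± 0.0885 (adjusted p = 0.0009504) and was at -0.05 ± 0.0866 in TC71 (adjusted p = 0.6845), a difference of -0.46 ± 0.124 (adjusted p = 0.01315).

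Among the HOX genes that passed the test for a difference between the responses of the lines, the difference lay in 1 direction. The difference passed the test with the fold limit in 6 genes, all lower in TC71 (HOXA2, HOXA11, HOXB4, HOXB6, HOXB9 and HOXC8), and in none higher, beside 2.87% and 4.18% of all tested genes. By adjusted p alone there were 9 lower (with HOXB7, HOXD10 and HOXD13) and 0 higher, beside 7.07% and 12.2%. HOXA2, the gene of hindbrain and pharyngeal arch patterning, enters with TC71 at the floor, where 20 to 46 counts were seen in the EW8 libraries. The median difference over the 35 genes was -0.46 on the log2 scale, against 0.035 over all tested genes, and 28 of the 35 were negative and 7 positive. JUN and FOS themselves were induced by different amounts: the response was larger in TC71 by 0.73 ± 0.154 for JUN and 2.21 ± 0.0894 for FOS on the log2 scale. For FOS much of this lay in the vehicle level, a mean of 11.67 CPM in TC71 against 36.76 CPM in EW8. With doxycycline the FOS means were 1580 CPM in TC71 and 1078 CPM in EW8 (log2 0.55 ± 0.0595), and the JUN means were 755.5 and 473.7 CPM (0.67 ± 0.104). The part of this in the HOX differences was not tested.

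With vehicle, 9 HOX genes were higher in TC71 than in EW8 and 9 were lower, beside 11.6% and 18.9% of all tested genes. Of the 9 lower genes 8 lie in HOXA (HOXA3, HOXA5, HOXA7 and HOXA13 among them) and HOXC4 is the other, and of the 9 higher genes 4 lie in HOXB (HOXB4, HOXB6, HOXB8 and HOXB9), with HOXA10, HOXC8, HOXC11, HOXD3 and HOXD4. The libraries did not overlap in 15 genes that were higher and 9 that were lower, beside 29.6% and 35.2% of all tested genes. With doxycycline 5 were higher (HOXA10, HOXB8, HOXB9, HOXC11 and HOXD4) and 10 lower (the same 9 and HOXA11), beside 12.6% and 18.4%. By adjusted p alone 15 genes were higher and 9 lower with vehicle (28.2% and 33.5% of all tested genes), and 8 were higher and 11 lower with doxycycline (30.2% and 32.3%). Each line here is 1 cell line, so these are differences between EW8 and TC71.

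HOXA7 (chr7:27153716-27157936, minus strand), a gene often raised in leukemias with MLL fusions, was at 10.9, 11.05 and 12.4 CPM in EW8 vehicle and at 0.573, 0.693 and 1.2 CPM in TC71 vehicle. The log2 difference was -3.81 ± 0.303 (adjusted p = 3.379e-09). It shares 62.5% of its exon length with the antisense gene HOXA-AS3, and reads in that stretch counted for neither gene. HOXA-AS3 was itself lower in TC71 (0.467 against 0.0835 CPM on average, with overlapping libraries), and the counts cannot be split by strand. HOXA3, needed for the thymus and parathyroid, was at 1.85, 2.35 and 4.28 CPM in EW8 and at 0.267, 0.274 and 0.0776 CPM in TC71 (-3.75 ± 0.442, adjusted p = 6.478e-07). Neither gene overlapped between the lines. HOXA6 was at 0.226, 0.959 and 0.772 CPM in EW8 and at 0.0764, 0.129 and 0.0582 CPM in TC71 (-2.84 ± 0.785, adjusted p = 0.004175). HOXA2 was at 0.586, 0.436 and 0.431 CPM in EW8 and at the floor in TC71, and so was at least 4.44-fold lower there (6 counts per library). Low levels of the first HOXA genes were thus seen in all 3 TC71 vehicle libraries, replicate 1 included.

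HOXC held a large difference in each direction. HOXC11 (chr12:53973126-53977643, plus strand), a hindlimb gene, was at 1.58, 1.7 and 1.65 CPM in EW8 vehicle and at 15.6, 18.4 and 13.5 CPM in TC71 vehicle (log2 3.27 ± 0.165, adjusted p = 5.938e-12). It did not change with doxycycline past the test, at -0.09 ± 0.18 in EW8 (adjusted p = 0.7353) and -0.13 ± 0.142 in TC71 (adjusted p = 0.4885). HOXC4 was at 10.1, 10.4 and 11.95 CPM in EW8 and at 1.66, 2.27 and 2.23 CPM in TC71 (-2.40 ± 0.172, adjusted p = 7.859e-10). HOXC6, HOXC9, HOXC10, HOXC12 and HOXC13 did not pass the test between the lines with vehicle (adjusted p from 0.1166 to 0.8773).

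In HOXB, HOXB9 was the widest apart, with the library values given above and a log2 difference of 6.62 ± 0.575 (adjusted p = 1.093e-08; 7.19 without TC71 vehicle replicate 1). HOXB8 (chr17:48611377-48614939, minus strand), a myeloid and sensory gene, was at 0.406, 0.131 and 0.0359 CPM in EW8 and at 2.29, 2.9 and 2.25 CPM in TC71 (3.74 ± 0.583, adjusted p = 1.941e-05). HOXB2 and HOXB3, at the 3' end, did not pass the test (0.20 ± 0.166, adjusted p = 0.3164, and 0.11 ± 0.185, adjusted p = 0.62). In HOXD, HOXD4 was at 0.158, 0.0872 and 0.108 CPM in EW8 and at 0.592, 0.451 and 0.951 CPM in TC71 (2.48 ± 0.577, adjusted p = 0.001087), and 80.5% of its exon length lies under the unnamed gene ENSG00000278500. HOXD8 and HOXD9 were at similar levels in the lines (0.14 ± 0.107, adjusted p = 0.2668, and 0.07 ± 0.143, adjusted p = 0.7063).

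**Figure D4:**
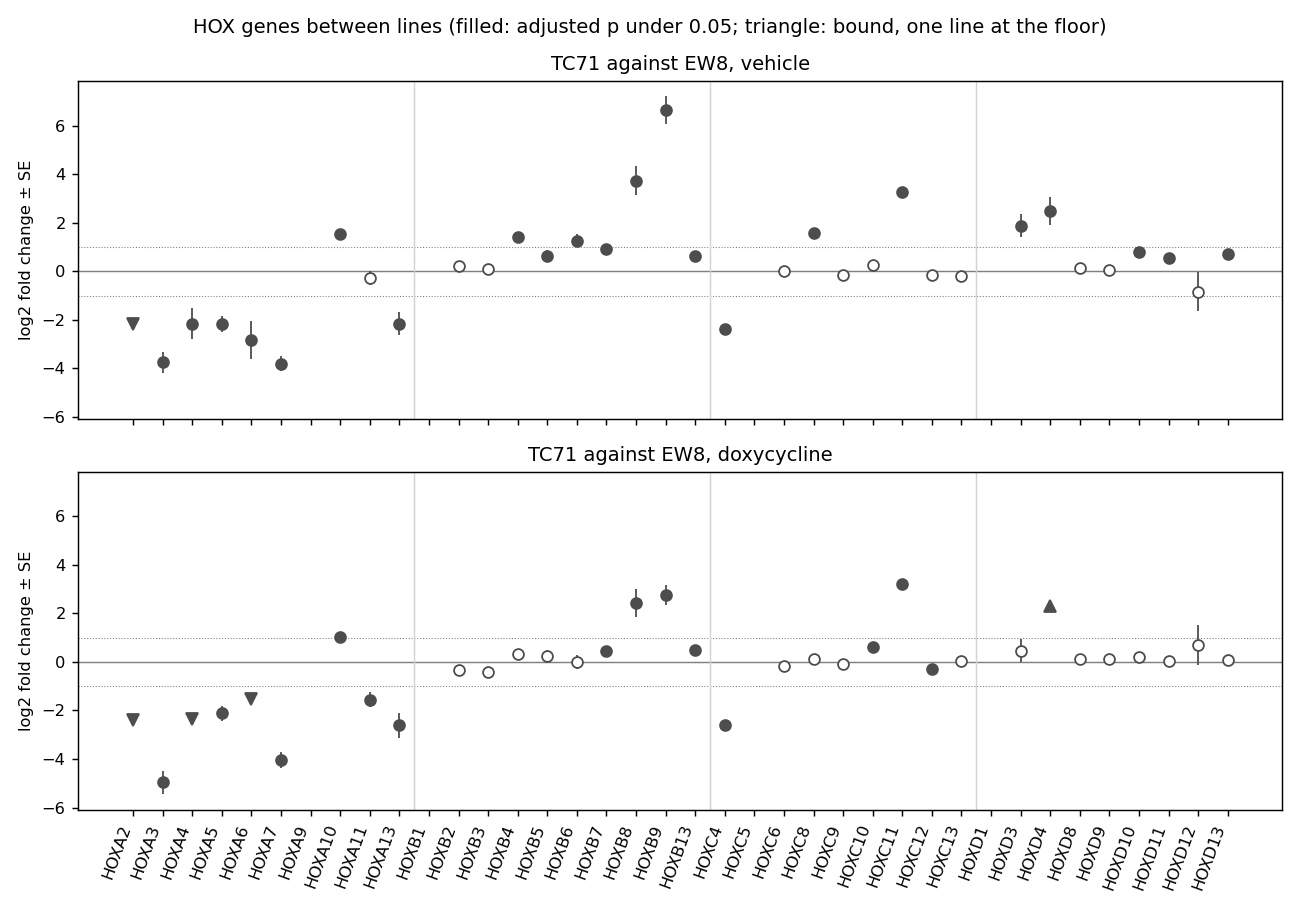
Log2 fold change ± SE of TC71 against EW8 (vertical axis) for the HOX genes in cluster and paralog order, with vehicle above and doxycycline below. Filled points passed an adjusted p under 0.05 and triangles are bounds for genes at the floor in 1 line; the first HOXA genes lie well under 0 in both panels, and HOXB9 drops from 6.62 with vehicle to 2.74 with doxycycline.

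Non-coding genes within the clusters were counted in the same table, and 13 of 26 listed ones were tested. In EW8, 3 rose and none fell (of the genes tested, 1 was lower by adjusted p alone), and in TC71 none passed the fold limit (1 lower by adjusted p alone), beside 11.4% higher and 3.38% lower of all tested genes in EW8 and 12.3% and 3.67% in TC71. The 3 became 0 when genes under 10 counts in any of the 12 libraries were left out. That filter also removes genes that are low in TC71 alone, HOXA-AS2 among them. HOXA-AS2, antisense in the 3' part of HOXA, was at 0.226, 0.37 and 0.449 CPM in EW8 vehicle and at 2.77, 3.1 and 3.45 CPM in EW8 doxycycline (log2 3.14 ± 0.45, adjusted p = 1.529e-05). HOTAIRM1, also in the 3' part of HOXA, rose by 2.17 ± 0.64 (adjusted p = 0.00977) and HOXC-AS2 by 1.36 ± 0.438 (adjusted p = 0.0168). In TC71, HOXA-AS2 was at or under 0.0322 CPM in every library. HOXA2, HOXA3 and HOXA4 were at log2 values of 0.63, 0.67 and 0.44 with doxycycline in EW8, and none of these 3 passed the test. HAGLR, antisense near HOXD1, was at 0.959 to 1.69 CPM in EW8 vehicle and at 15.2 to 21.9 CPM in TC71 vehicle (3.77 ± 0.247, adjusted p = 2.228e-10) with no call for doxycycline. HOTAIR, in HOXC, was lower by adjusted p alone in both lines (-0.61 ± 0.234, adjusted p = 0.04139, and -0.94 ± 0.266, adjusted p = 0.007156).

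Of 22 genes flanking the clusters 20 were tested, and 2 fell and 0 rose in EW8 and 3 rose and 0 fell in TC71, beside 3.38% and 11.4% of all tested genes in EW8 and 12.3% and 3.67% in TC71. Without the fold limit 5 were higher and 8 lower in EW8, beside 21.9% and 22% of all tested genes. In TC71 these counts were 7 higher and 7 lower, beside 25.1% and 20.4%. The counts of 0 were not stable: the EW8 one was 2 with no filter on low counts and 1 with DESeq2, and the TC71 one was 1 in 5 alternatives (library size alone, no filter, at least 10 counts in every library, DESeq2 and halved counts). Both that fell in EW8 lie on the sides of HOXB13. TTLL6, a tubulin-modifying enzyme, went from 3.16, 2.27 and 2.19 CPM to 0.501, 1.34 and 0.685 CPM in EW8 (log2 -1.59 ± 0.425, adjusted p = 0.005199), and in TC71 it was at -1.09 ± 0.462 (adjusted p = 0.06301). PRAC1, named here after its values were seen, went from 14.9, 16.2 and 12.8 CPM to 5.5, 7.63 and 6.17 CPM in EW8 (-1.19 ± 0.169, adjusted p = 1.406e-05) and from 21.5, 33.7 and 35.9 CPM to 17.2, 17.1 and 16.6 CPM in TC71 (-0.84 ± 0.16, adjusted p = 0.0002765). The largest rise in TC71 was that of SNX10, a sorting nexin, from a mean of 0.477 to 2.33 CPM (2.26 ± 0.382, adjusted p = 8.068e-05).

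All 9 TALE cofactors were tested. In EW8 none passed the fold limit, beside 11.4% higher and 3.38% lower of all tested genes. By adjusted p alone 3 were higher and 3 lower there, beside 21.9% and 22%. TC71 had 2 called higher and 1 lower, beside 12.3% and 3.67% of all tested genes. Its counts by adjusted p alone were 3 higher and 4 lower, beside 25.1% and 20.4%. In TC71, PBX3 went from 15.3, 10.9 and 11.6 CPM to 46.6, 48.3 and 48.9 CPM (log2 1.93 ± 0.112, adjusted p = 6.728e-11). MEIS3 went from 0.42, 0.87 and 0.543 CPM to 3.1, 3.01 and 3.64 CPM (2.39 ± 0.228, adjusted p = 7.683e-08), and PKNOX2 from 10.7, 12.5 and 12.9 CPM to 3.37, 3.87 and 4.1 CPM (-1.67 ± 0.14, adjusted p = 1.287e-08). Their EW8 values were 0.50 ± 0.107, 0.93 ± 0.186 and -0.91 ± 0.128, in the same directions and under the fold limit. With vehicle, 6 of the 9 cofactors were lower in TC71 than in EW8 and none was higher, beside the 18.9% and 11.6% of all tested genes.

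Among 37 Polycomb genes 2 rose and 3 fell in EW8 and 2 rose and 1 fell in TC71, beside 11.4% and 3.38% of all tested genes in EW8 and 12.3% and 3.67% in TC71. By adjusted p alone 3 were higher and 19 lower in EW8, beside 21.9% and 22%, and 7 higher and 14 lower in TC71, beside 25.1% and 20.4%. CBX2, a chromodomain subunit of Polycomb repressive complex 1, fell in both lines, from a mean of 147.3 to 58.7 CPM in EW8 (-1.33 ± 0.0766, adjusted p = 8.092e-11) and from 149.6 to 55.8 CPM in TC71 (-1.42 ± 0.077, adjusted p = 2.592e-11). PCGF5, a subunit of a variant of the same complex, rose by 1.42 ± 0.0975 in EW8 (adjusted p = 1.034e-09) and 1.32 ± 0.0983 in TC71 (adjusted p = 2.716e-09). EZHIP, an inhibitor of Polycomb repressive complex 2, was called lower in EW8 with both groups at the floor, so no fold is given. Of 25 Trithorax and MLL genes, KDM6B, which removes methyl groups from lysine 27 of histone H3, rose in EW8 from a mean of 36 to 90.7 CPM (1.33 ± 0.121, adjusted p = 5.017e-08). None of the 25 was called in TC71. KDM6B was higher with doxycycline there too, without overlap, at 28.2, 21.7 and 18.6 CPM with vehicle and 33.45, 36.4 and 31.2 CPM with doxycycline. By adjusted p alone 2 of the 25 were higher and 17 lower in EW8 and 3 higher and 12 lower in TC71, against the same shares of all tested genes.

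Genes upstream of HOX clusters in development, the CDX factors and the retinoic acid pathway, gave 15 tested genes of 21, of which 5 rose and none fell in EW8 and 3 rose and 2 fell in TC71, beside 11.4% and 3.38% of all tested genes in EW8 and 12.3% and 3.67% in TC71. Without the fold limit 6 were higher and 3 lower in EW8, beside 21.9% and 22% of all tested genes. In TC71 these counts were 4 higher and 7 lower, beside 25.1% and 20.4%. RARB, a retinoic acid receptor, rose most in EW8, from a mean of 0.206 to 5.56 CPM (4.74 ± 0.427, adjusted p = 4.418e-08). STRA6, the cell surface receptor for retinol binding protein, rose most in TC71, from 2.73 to 83.7 CPM (4.94 ± 0.103, adjusted p = 3.452e-17). DHRS3, a retinal reductase, fell most in TC71 (-1.95 ± 0.404, adjusted p = 0.0005892), but at a low level. It went from 0.382, 0.483 and 0.233 CPM to 0.0485, 0.0478 and 0.182 CPM. TC71 doxycycline replicates 1 and 2 were under 6 counts for DHRS3, so the size of its fall is uncertain. Of 61 other homeobox genes of the same ANTP class 42 were tested. In EW8 5 were higher and 7 lower, beside 11.4% and 3.38% of all tested genes, and in TC71 5 higher and 5 lower, beside 12.3% and 3.67%. Without the fold limit the ANTP counts were 5 higher and 14 lower in EW8 and 6 higher and 10 lower in TC71, beside 21.9% and 22% of all tested genes in EW8 and 25.1% and 20.4% in TC71. MEOX1, a somite gene, fell in TC71 from 0.893 to 0.109 CPM (-2.997 ± 0.627, adjusted p = 0.000646). TC71 doxycycline replicates 1 and 2 were under 6 counts for MEOX1 as well, so the size of its fall is uncertain. In EW8, NANOG had no count with vehicle and rose at least 5.74-fold over the floor, with near-identical pseudogenes that make its count uncertain, and EMX1 fell from 0.634 to 0.157 CPM (-1.99 ± 0.762, adjusted p = 0.04502). EW8 doxycycline replicate 2 was under 6 counts for EMX1. Among the 7 Ewing sarcoma markers 2 fell in EW8 and 1 in TC71 past the fold limit, and by adjusted p alone 1 was higher and 4 lower in EW8 and 2 higher and 3 lower in TC71. The shares of all tested genes are those given above for each line. CD99 rose from a mean of 806.6 to 1243 CPM in EW8 (0.62 ± 0.0662, adjusted p = 3.727e-07) and from 558.4 to 759.6 CPM in TC71 (0.44 ± 0.0661, adjusted p = 1.984e-05). PAX7 fell in both lines (-1.25 ± 0.0651, adjusted p = 1.773e-11, and -1.27 ± 0.0653, adjusted p = 1.248e-11) and LIPI in EW8 (-1.40 ± 0.114, adjusted p = 1.076e-08). Among markers of other cell types, PECAM1 rose in EW8 from a mean of 7.07 to 37.5 CPM (2.41 ± 0.141, adjusted p = 6.173e-10) and from no count to 3.66 CPM in TC71, at least 33.5-fold over the floor, and EPCAM rose in TC71 from 0.706 to 11.9 CPM (4.05 ± 0.349, adjusted p = 1.91e-08).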

How the data were processed

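Polyadenylated RNA from 12 libraries (4 groups of 3) was sequenced as read pairs. The submitters' processing notes name STAR and featureCounts. The header of the count table gives featureCounts 2.0.1 and GENCODE release 29, and the study's methods give hg38. The deposited values are raw counts of reads on each gene's exons. Counting took each mate separately and without strand, and dropped reads that touched more than 1 gene or mapped to several places, so overlapping and antisense genes are uncertain.

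The 39 HOX genes were matched through gene identifiers (58252 of 58721 genes had a symbol, 99.2%). Members, gene lists and the rules for named genes were chosen with earlier results of these data known, and the lists were written from general knowledge. Genes were filtered with filterByExpr (21013 kept, 99.95% of counts), scaled by TMM and tested with the edgeR 4.0.16 quasi-likelihood test in R 4.3.3, with all 12 libraries in 1 fit of 4 groups. Benjamini-Hochberg adjustment ran over every gene tested. A call needed both an adjusted p under 0.05 and a log2 fold change beyond 1 in either direction. The script was tested on simulated data. Named genes were the HOX genes called with doxycycline or in the difference of the responses, the 10 largest called differences between lines with vehicle, the highest gene per cluster, the largest called rise and fall of each list, called TALE cofactors, overlapping non-coding genes, JUN and FOS. Level per kb is CPM divided by the deposited exon length. A group with 6 counts or fewer in each library was at the floor, which covers counting error only. Promoter windows came from RefSeq. Alternatives were median-ratio scaling, library size alone, no filter, at least 10 counts in every library, DESeq2 1.42.0, halved counts, a replicate block, only the groups compared, no fold limit, and leaving out each replicate. Single-gene results for 2 of the genes tested, 1 of them a HOX gene, are not reported here and not drawn; counts over all HOX genes include it.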

Additional observations from a re-analysis of the deposited data

Results flagged for a closer look

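The response to doxycycline differed between the lines, by the interaction term of the edgeR fit (TC71 minus EW8, log2, adjusted p under 0.05), for 9 HOX genes. The differences were -3.88 for HOXB9, -1.45 for HOXC8, -1.28 for HOXA11, -1.26 for HOXB6, -1.08 for HOXB4, -0.63 for HOXD13, -0.60 for HOXD10 and -0.46 for HOXB7. For HOXA2, where TC71 was at the floor, the adjusted p was 0.008395 and no size is given. HOXB9 rests on a TC71 vehicle group with 1 low library (5.46 CPM against 28.8 and 31.5 CPM), and the difference was -4.46 without it.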

How the results depend on the processing

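Against 3 HOX genes higher and 1 lower in EW8 with doxycycline, no fold limit gave 10 and 4, and the lower count was 0 under median-ratio scaling, at least 10 counts in every library, DESeq2, halved counts, the replicate block and only the groups compared, and 0 to 1 on leaving out each replicate (0 without EW8 vehicle replicates 2 or 3 or doxycycline replicates 1 or 3), since HOXB13 then lay inside the fold limit, down to -0.91. In TC71, 0 higher became 3 and 3 lower became 9 without a fold limit, and the lower count was 2 to 5 on leaving out each replicate (5 without doxycycline replicate 2, 2 without doxycycline replicate 3). Between lines with vehicle, 9 higher became 15 without a fold limit and 9 lower became 3 with at least 10 counts in every library, which removes low genes. With doxycycline, 5 higher became 2 with that filter, 3 under the replicate block and 8 without a fold limit, and 10 lower became 4 with that filter. Counts for the difference of the responses stayed at 0 higher and 4 to 9 lower in 20 alternatives.

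For HOXB4 in TC71 the sign turned to -0.0411 with library size alone and, of a range from -0.0624 to 0.125 over leaving out each replicate, was negative without TC71 vehicle replicates 1 or 2 or doxycycline replicate 2, and for HOXB9 in TC71 to 0.23 under the replicate block and 0.20 and 0.25 without TC71 vehicle replicates 2 and 3, against -0.589 without replicate 1. Neither was called. Replicate numbers did not pair the libraries (correlations of deviations from -0.0282 to 0.00977), and under the block HOXA2, HOXA6, HOXA13 and HOXD4 lost their call between lines with vehicle, as did HOXA11 and HOXB6 for the difference of the responses (-1.30, adjusted p = 0.05861, and -1.27, adjusted p = 0.05508). The cause of these shifts was not tested. HOX genes with under 6 counts per library cannot be compared at this depth.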
